A study of Homo sapiens with 9 samples.

Results

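The actin cytoskeleton genes and targets of SRF and YAP described here are 37 human genes picked by gene symbol for their roles. The rule uses no measured value, although the list was drawn up when earlier results of these data were known. Of these, 34 were measured by a probe set that the platform table ties to 1 gene, out of 19775 genes measured in this way on the array. ACTG1 was read only by probe sets shared with ACTB, and FLNA and TPM3 have no probe set of their own and were not analysed here. Where a gene had several probe sets, the one of highest mean signal over the 9 arrays stood for it and the others served as a check. The 34 genes had 90 probe sets between them.

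Transcripts were measured in the Jurkat line, human leukaemic T cells kept in culture, on 9 arrays in 3 groups of 3. The nsEP group received 100 nanosecond electrical pulses of 10 ns at 150 kV/cm in an electroporation cuvette. The heat shock group was warmed in a water bath in the same kind of cuvette, and the sham group was handled on the pulser without power. RNA was taken 4 h after exposure in all 3 groups. The labels call the samples biological replicates and do not say whether they were separate cultures, so the p-values measure the spread between these samples. Since RNA came from whole cultures, fewer cells of a type and less RNA per cell cannot be told apart.

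Actin filaments are assembled from monomers, branched by the Arp2/3 complex, tied together by crosslinkers and pulled on by myosin, and they are anchored to the membrane and to adhesions by linker proteins. The transcription factor SRF reads the state of actin through its coactivators MRTFA and MRTFB, which are held by free actin monomers, and it drives actin genes through a DNA element named the CArG box. YAP and TAZ, the effectors of the Hippo pathway, enter the nucleus under mechanical tension and act through TEAD factors on genes such as CCN1, CCN2 and ANKRD1. T cells use this machinery for migration and for the contact with other cells, while YAP and its targets are best known from adherent cells.

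None of the 34 genes passed the test after nsEP. The smallest adjusted p among them was 0.77 (limma, Benjamini-Hochberg over 54613 probe sets), 0 had an unadjusted p under 0.05, and 12 of all 19775 genes (0.0607%) were called at an adjusted p under 0.05, 0.0506% higher and 0.0101% lower, with 5.4% at an unadjusted p under 0.05. Their log2 ratios of nsEP over sham lay between -0.81 and 1.02, with a median of 0.08 against -0.02 for all genes. The 95% interval of the ratio lay within 1 log2 unit of zero for 28 of the 34 and within 0.5 for 5. In 1 gene, MRTFB, the 3 nsEP arrays and the 3 sham arrays did not overlap, where 9.96% of all genes had groups that did not overlap. The count of 0 calls was the same under every alternative processing tried.

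After heat shock 1 of the 34 genes was called, MRTFB, which lay below sham (limma, adjusted p = 0.0329), and 0 were called higher. Of all genes 5.71% were called in either direction, 1.72% higher and 3.99% lower (1.19% and 11.1% on centred arrays, 0.314% and 9.9% with spike-in scaling). Of the 34, 7 had an unadjusted p under 0.05, MRTFB included (22.0% of all genes), and in 13 the groups did not overlap, where 31.2% of all genes did so. The log2 ratio of heat shock over sham was above zero for 28 of the 34 genes, but for 14 when each array was centred on its median, 22 after quantile normalization and 3 when arrays were scaled to the poly-A RNA spike-in controls. The mean log2 signal of those controls was 9.89 to 11.16 in nsEP, 11.07 to 11.69 in heat shock and 9.74 to 10.74 in sham, and its part in the ratios was not tested. Heat shock moved the median of all genes by 0.14 on the log2 scale, and by 0.47 in the dimmest quartile of the probe sets and -0.05 in the brightest. Relative to that median the members' median ratio of 0.27 became 0.13, and 27 of the 34 lay above it (22 after quantile normalization). Without heat shock replicate 2, 18 of the 34 lay above the median of all genes, and the relative median was 0.06.

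Between nsEP and heat shock 0 of the 34 genes were called by limma (smallest adjusted p 0.0732, for ARPC3), while 8 had an unadjusted p under 0.05 (20.9% of all genes). In 9 the groups did not overlap, and 5.99% of all genes were called in this comparison (3.83% higher and 2.16% lower in nsEP, or 10.5% and 1.35% on centred arrays and 4.77% and 0.243% with spike-in scaling) and 25.1% had groups that did not overlap. The median ratio of nsEP over heat shock was -0.20 for the members against -0.14 for all genes. All 3 comparisons come from the same 9 arrays, and both contrasts with sham use the same sham arrays.

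**Figure D1:**
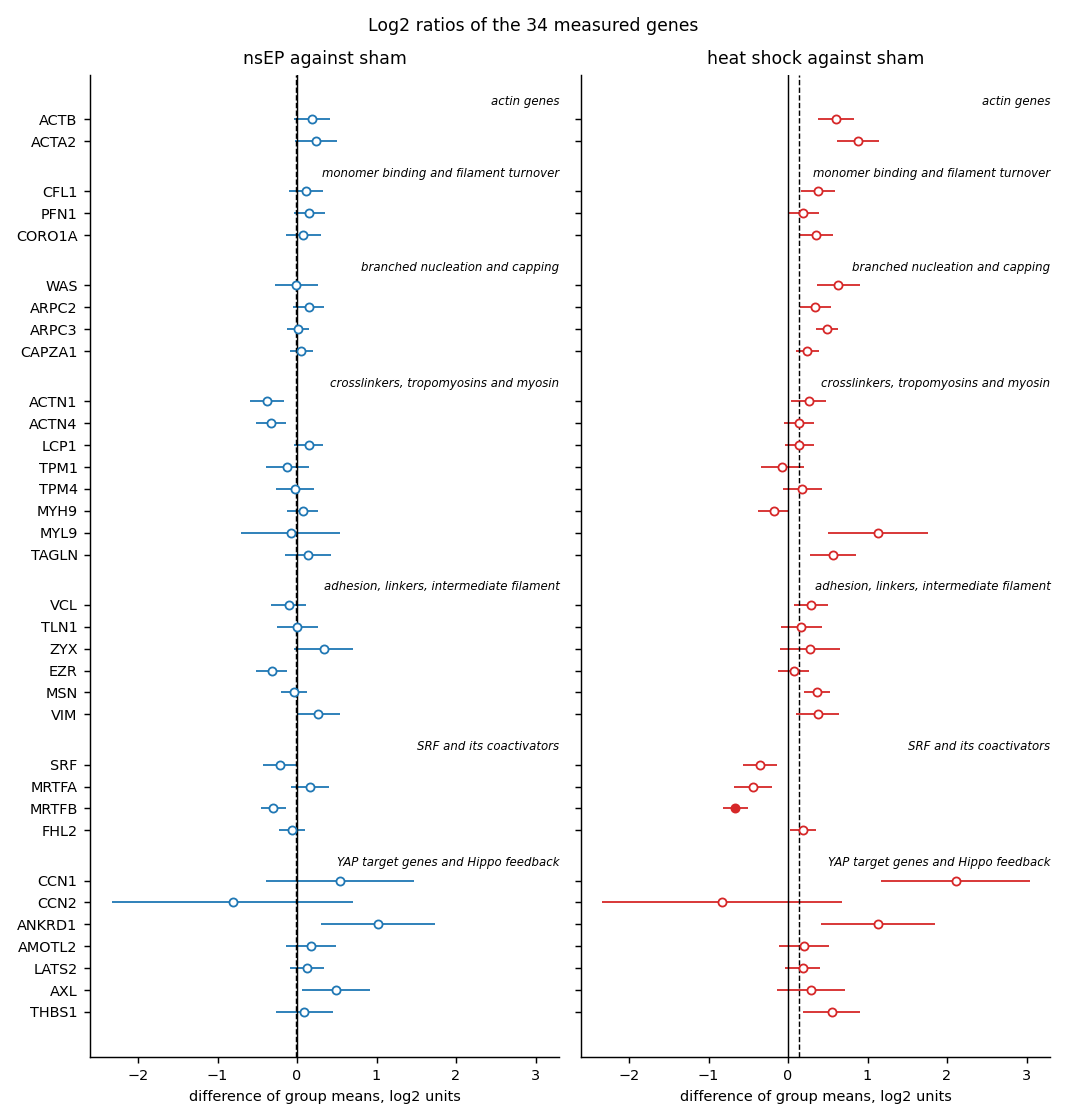
Difference of group means in log2 units for the 34 measured genes, grouped by role, for nsEP against sham (left) and heat shock against sham (right), with standard errors from limma as bars, a dashed line at the median of all genes and a filled point where the gene was called. MRTFB at -0.66 after heat shock is the only filled point, and CCN2 has the widest bars (SE 1.51).

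At their brightest probe sets both actin genes with a probe set of their own lay above sham on every heat shock array, on the deposited scale. ACTB, the cytoplasmic beta actin, had log2 signals of 15.06, 15.01 and 15.82 in nsEP, 15.68, 15.83 and 15.61 in heat shock and 15.14, 14.87 and 15.32 in sham. Its 3 heat shock arrays all lay above its 3 sham arrays, and nsEP replicate 3 lay with the heat shock arrays while replicates 1 and 2 lay with sham. The log2 ratio was 0.19 ± 0.23 for nsEP over sham (SE, adjusted p = 0.934) and 0.60 ± 0.23 for heat shock over sham (adjusted p = 0.177), neither of them called by limma. The heat shock ratio was -0.43 when arrays were scaled to the spike-in controls, and its other 2 single-gene probe sets gave 0.51 and 0.48.

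ACTG1, the cytoplasmic gamma actin, can be read here only together with ACTB, on 9 probe sets listed for both genes. Among them, 1 probe set had log2 signals of 14.81, 14.84 and 15.5 in nsEP, 15.27, 15.42 and 15.30 in heat shock and 14.82, 14.70 and 15.14 in sham, with heat shock arrays above sham and nsEP replicate 3 the highest of the 9 arrays. The ratios of all 9 probe sets lay between 0.09 and 0.19 for nsEP over sham and between 0.42 and 0.51 for heat shock over sham, with 0 called in either. These values do not tell the 2 genes apart. ACTA2, the smooth muscle alpha actin, had log2 signals of 7.37, 7.37 and 7.12 in nsEP, 7.80, 8.19 and 7.79 in heat shock and 6.78, 7.29 and 7.06 in sham, so that its heat shock arrays were the highest of the 9. Its ratio was 0.24 for nsEP over sham and 0.88 ± 0.26 for heat shock over sham (SE, limma adjusted p = 0.0856), and it passed the threshold only when dim probe sets were left out of the fit (adjusted p = 0.045). Its other 2 probe sets, both dimmer than the median probe set, did not show this rise. They gave heat shock ratios of -0.03 and 0.23 and nsEP ratios of -0.49 and -1.61 over sham, none of them called.

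Control probe sets at the ends of the actin transcript gave a measure of RNA integrity beside these values. The log2 difference of the 3′ end over the 5′ end was 0.31, 0.37 and 1.24 in nsEP, 0.79, 0.62 and 0.72 in heat shock and 1.26, 0.58 and 0.52 in sham. The 3′ end followed ACTB, with nsEP replicate 3 at 15.70 against 14.85 and 14.76 in nsEP replicates 1 and 2, while the 5′ end lay between 14.39 and 14.54 on the 3 nsEP arrays. The part of RNA integrity in the actin values was not tested.

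**Figure D2:**
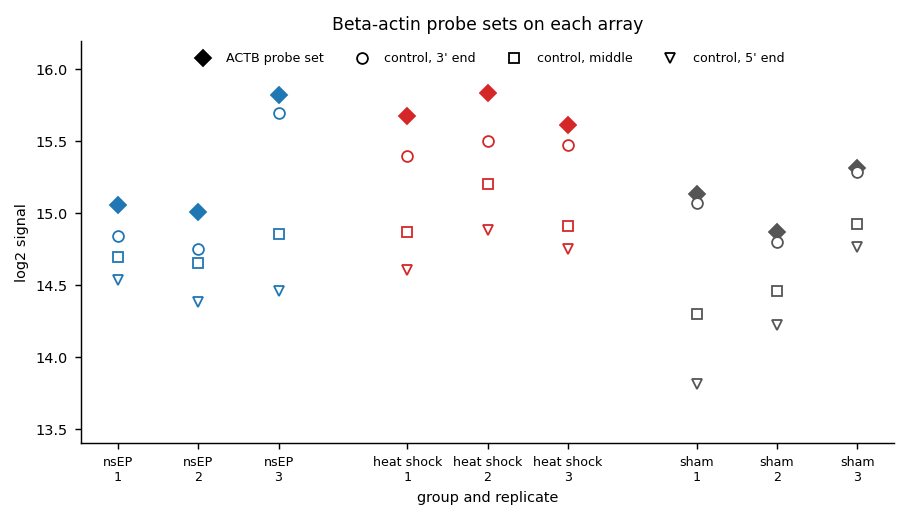
Log2 signal on each of the 9 arrays, by group and replicate, for the ACTB probe set (diamonds) and the control probe sets at the 3′ end, the middle and the 5′ end of the actin transcript (open symbols). In nsEP replicate 3, ACTB at 15.82 and the 3′ control at 15.70 stand above nsEP replicates 1 and 2, while the 5′ control at 14.46 lies between theirs.

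None of the 3 factors that bind monomers and turn over filaments was called. CFL1, the severing protein cofilin, had log2 signals of 14.23, 14.14 and 14.97 in nsEP, 14.59, 14.75 and 14.81 in heat shock and 14.41, 14.15 and 14.45 in sham. Again the heat shock arrays lay above the sham arrays and nsEP replicate 3 stood above the other nsEP arrays. PFN1, the monomer carrier profilin, and CORO1A, the coronin of blood cells that regulates filament turnover, had ratios of 0.15 and 0.08 for nsEP over sham and of 0.19 and 0.35 for heat shock over sham.

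ARPC3, which serves branched nucleation, came closest to a call after heat shock among the members other than MRTFB. It encodes a subunit of the Arp2/3 complex and had log2 signals of 13.43, 13.44 and 13.65 in nsEP, 13.99, 13.97 and 13.99 in heat shock and 13.56, 13.41 and 13.51 in sham. The heat shock arrays agreed to within 0.02 and lay above the other 6. Its ratio was 0.49 ± 0.14 for heat shock over sham (SE, limma adjusted p = 0.0743) and -0.48 ± 0.14 for nsEP over heat shock (adjusted p = 0.0732), against 0.01 for nsEP over sham. It was called in both contrasts with array weights, with the dim probe sets removed, and with gene means. WAS, the Wiskott-Aldrich syndrome protein that activates Arp2/3 in blood cells, had log2 signals of 11.45, 11.65 and 12.75 in nsEP, 12.74, 12.49 and 12.55 in heat shock and 12.08, 11.76 and 12.04 in sham. Here too nsEP replicate 3 lay with the heat shock arrays, and the other 2 nsEP arrays lay below sham.

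ARPC2, another Arp2/3 subunit, and CAPZA1, which caps filament ends, had ratios of 0.15 and 0.05 for nsEP over sham and of 0.35 and 0.24 for heat shock over sham. Of the remaining Arp2/3 subunits 6 of 7 were measured and none was called in any comparison. Their median heat shock ratio was 0.10, below the 0.14 of all genes but above the -0.05 of genes in the brightest quartile, where all 6 lay. That of the 4 members of this group, which lay in the same quartile, was 0.42.

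The array of replicate 3 of nsEP differed from the rest. On the second principal component (14.5% of the variance) its score was 172.7, and those of the other 8 arrays ran between -62.5 and 30.5. It was the highest of the 9 arrays for 7 of the 34 members and the lowest for 2. Without it the median nsEP ratio over sham was -0.07 and 12 of the 34 ratios were above zero, against 21 with it. Without that array 4 members were called by limma in heat shock against sham (ACTB, WAS, ARPC3 and MRTFB), where 7.71% of all genes were called. In that fit 4 were called lower in nsEP than in heat shock: ACTB at -0.67 (adjusted p = 0.0338), WAS at -1.04 (0.00249), ARPC3 at -0.55 (0.0255) and MSN at -0.56 (0.0313), where 4.18% of all genes were called lower and 4.87% higher. Heat shock replicate 2 was the highest array for 14 of the 34 members, against 3 and 4 for heat shock replicates 1 and 3.

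Among the crosslinkers, tropomyosins and myosins, the alpha actinins ACTN1 and ACTN4 had the lowest nsEP ratios, -0.38 and -0.33, with limma adjusted p of 0.795 and 0.791. ACTN1 had log2 signals of 11.53, 11.62 and 11.68 in nsEP, 12.06, 12.74 and 11.94 in heat shock and 12.22, 12.12 and 11.63 in sham. Its nsEP arrays all lay below its heat shock arrays, and 1 nsEP array lay above the lowest sham array. The nsEP ratio over heat shock was -0.64 for ACTN1 (adjusted p = 0.121) and -0.47 for ACTN4 (adjusted p = 0.185), in both with groups that did not overlap. LCP1, the plastin of blood cells that bundles filaments, TPM1 and TPM4, tropomyosins that coat filaments, and MYH9, the heavy chain of nonmuscle myosin, had ratios between -0.18 and 0.18 in both contrasts with sham.

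MYL9, a myosin light chain, and TAGLN, the smooth muscle protein transgelin, had heat shock ratios of 1.13 ± 0.63 and 0.57 ± 0.29 (SE), with limma adjusted p of 0.374 and 0.322. In both the heat shock arrays lay above the sham arrays at the main probe set. At their other probe sets heat shock and sham overlapped, with heat shock ratios of 0.09 for MYL9 and of 0.17 and 0.38 for TAGLN. That other MYL9 probe set lay in the dimmest quartile. MYL9 was dimmer than the median probe set, where the spread between replicates is wide, and its 95% interval ran from -0.23 to 2.49. Ratios of nsEP over sham were -0.08 for MYL9 and 0.14 for TAGLN.

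The linkers to adhesions and the membrane were not called in any comparison at their main probe sets. VCL, which encodes vinculin, had log2 signals of 7.84, 8.37 and 8.0 in nsEP, 8.61, 8.49 and 8.30 in heat shock and 8.21, 8.34 and 7.98 in sham, with groups that overlapped in both contrasts with sham. Its ratio was -0.11 for nsEP over sham and 0.29 ± 0.22 for heat shock over sham (SE, limma adjusted p = 0.522). TLN1, the integrin activator talin, had ratios of 0.00 and 0.17, and ZYX, the adhesion protein zyxin, of 0.33 and 0.28. EZR and MSN, which encode ezrin and moesin and tie actin to the membrane, had ratios of -0.32 and -0.04 for nsEP over sham and of 0.07 and 0.36 for heat shock over sham.

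VIM, the intermediate filament vimentin, had log2 signals of 13.23, 13.68 and 12.84 in nsEP, 13.06, 13.92 and 13.07 in heat shock and 12.57, 13.18 and 13.19 in sham. The 3 groups overlapped, and the lowest array was sham replicate 1. The ratio was 0.27 ± 0.27 for nsEP over sham and 0.37 ± 0.27 for heat shock over sham (SE, limma adjusted p = 0.92 and 0.515).

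Of SRF and its coactivators 3 of 4 had heat shock ratios below zero, with a median of -0.40 (-0.53 relative to all genes). MRTFB, the coactivator also named MKL2, had log2 signals of 10.75, 10.98 and 10.52 in nsEP, 10.37, 10.55 and 10.22 in heat shock and 11.06, 11.04 and 11.03 in sham. All 3 nsEP and all 3 heat shock arrays lay below the sham arrays, which agreed to within 0.03. MRTFB fell by 0.66 on the log2 scale after heat shock (SE 0.16, 95% interval -1.0 to -0.32, limma adjusted p = 0.0329), or -0.80 relative to the median of all genes. After nsEP its ratio was -0.30 ± 0.16 (SE, adjusted p = 0.77), and that of nsEP over heat shock was 0.37 ± 0.16 (adjusted p = 0.226). The ratio after heat shock stayed below zero without any 1 array, between -0.75 and -0.58, with an adjusted p between 0.0155 and 0.128 that missed the threshold in 5 of 9 cases, without heat shock replicate 1 (0.108) or 3 (0.128) or without sham replicate 1 (0.101), 2 (0.106) or 3 (0.0874).

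The call rests on 1 of the 5 probe sets of MRTFB. The other 4 gave heat shock ratios of -0.04, 0.66, 1.33 and 1.85, none of them called, and lay below the brightest quartile of signals. With the probe sets averaged the ratio was 0.63 (limma, adjusted p = 0.324), opposite in sign to that of the brightest probe set. MRTFA, the paralogous coactivator, had log2 signals of 7.95, 8.39 and 8.80 in nsEP, 7.70, 7.86 and 7.76 in heat shock and 8.23, 8.38 and 8.05 in sham. Its heat shock arrays lay below all 6 others, with a ratio of -0.44 ± 0.24 over sham (SE, adjusted p = 0.361), and its nsEP ratio over heat shock was 0.61 (adjusted p = 0.191).

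SRF itself had log2 signals of 9.19, 9.86 and 9.45 in nsEP, 9.04, 9.68 and 9.35 in heat shock and 9.89, 9.57 and 9.67 in sham. The groups overlapped, although the lowest array of sham lay above 2 of 3 arrays in each exposed group. The ratio was -0.21 ± 0.22 for nsEP over sham and -0.35 ± 0.22 for heat shock over sham (SE, limma adjusted p = 0.92 and 0.423), and its second probe set gave -0.00 after heat shock. FHL2, a LIM protein that binds SRF and is itself a target, had ratios of -0.06 and 0.19.

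Promoters of SRF and of the immediate early gene EGR1 are shown because both hold a pair of CArG boxes, the element SRF binds, and EGR1 is described with the immediate early genes further on. The windows come from RefSeq (GRCh38.p14), 5′ to 3′ on the plus strand, chr6:43171224-43171283 for SRF and chr5:138465359-138465420 for EGR1, with each CArG box in capitals. In SRF the boxes start 30 and 10 bases before the transcript start, and in EGR1 105 and 83 bases before it.
SRF: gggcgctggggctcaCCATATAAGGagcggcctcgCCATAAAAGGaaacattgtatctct
EGR1: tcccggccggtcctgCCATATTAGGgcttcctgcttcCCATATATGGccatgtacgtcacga

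The CArG box was searched on both strands in windows from 250 bases before to 50 bases after each start. It occurred in 1.29% of 35116 windows of all genes and in 8 of 55 windows of the members, which covered 33 of 37 genes. The 6 genes with a match were ACTG1, ACTN1, FHL2, FLNA, SRF and TPM4. None of the 4 measured without a shared probe set (ACTN1, FHL2, SRF and TPM4) was called in any comparison at its main probe set. A match is a description of the letters, not a binding site or a cause.

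**Figure D3:**
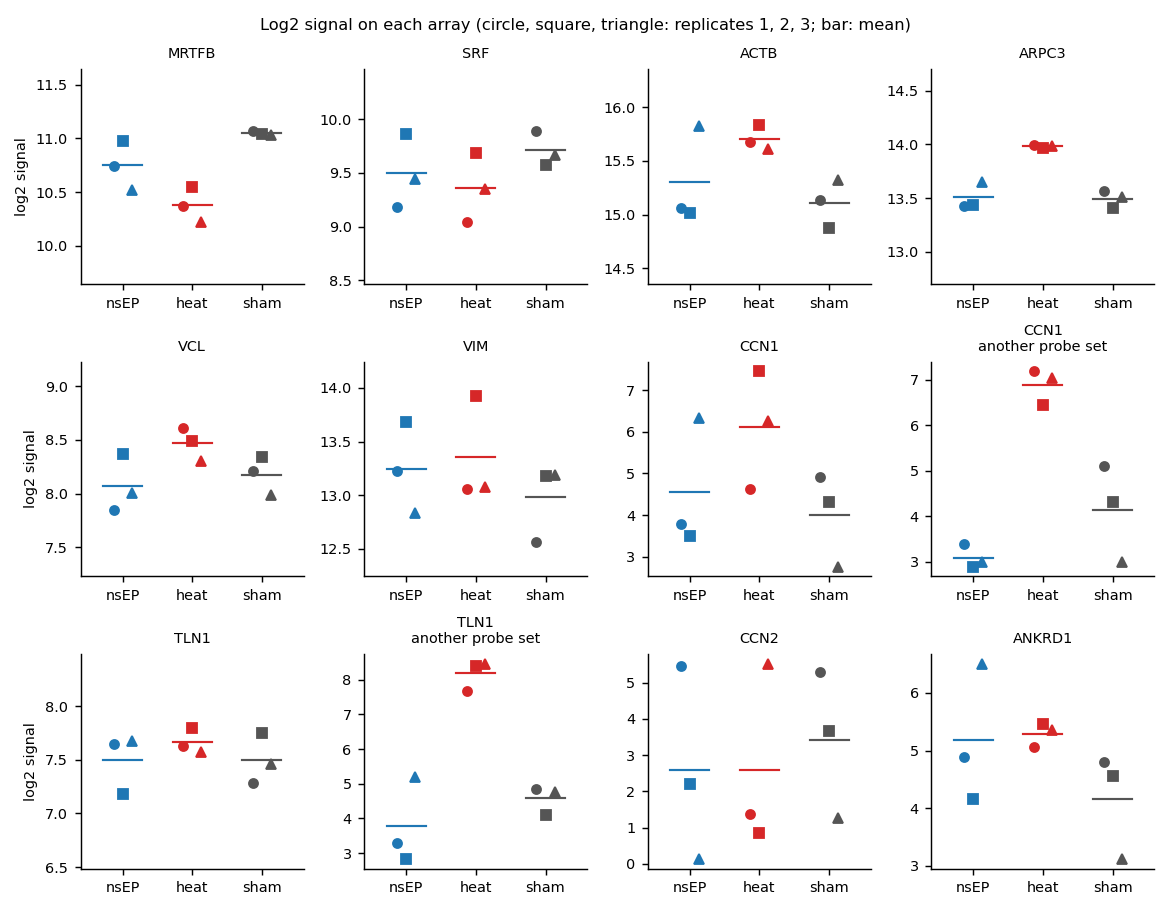
Log2 signal on each array in nsEP, heat shock and sham for 10 genes (MRTFB, SRF, ACTB, ARPC3, VCL, VIM, CCN1, TLN1, CCN2 and ANKRD1) and a further probe set each of CCN1 and TLN1, with circle, square and triangle for replicates 1, 2 and 3 and bars at group means; each panel has its own scale. In MRTFB the sham arrays, at 11.03 to 11.06, lie above the other 6, and CCN2 spans 0.14 to 5.46 within nsEP.

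YAP target genes were at low signals in these cells, with 4 of 7 below the median of all probe sets and CCN2 in the dimmest quartile. CCN2, the matricellular protein also named CTGF, had log2 signals of 5.46, 2.20 and 0.14 in nsEP, 1.38, 0.85 and 5.52 in heat shock and 5.30, 3.67 and 1.26 in sham. Each group held arrays above 5 and below 1.5, so the groups cannot be ordered. Its ratio was -0.81 ± 1.51 for nsEP over sham and -0.83 ± 1.51 for heat shock over sham (SE), and the 95% interval of the nsEP ratio ran from -4.09 to 2.47.

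ANKRD1, a stretch-responsive ankyrin repeat protein, had log2 signals of 4.88, 4.17 and 6.51 in nsEP, 5.06, 5.46 and 5.35 in heat shock and 4.81, 4.57 and 3.12 in sham. Its heat shock arrays lay above its sham arrays, and of the nsEP arrays replicate 3 was the highest of the 9 while replicates 1 and 2 lay in or close to the range of sham. The ratios were 1.02 ± 0.72 for nsEP over sham and 1.13 ± 0.72 for heat shock over sham (SE, limma adjusted p = 0.852 and 0.444).

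CCN1, the matricellular protein also named CYR61, had log2 signals of 3.80, 3.50 and 6.34 in nsEP, 4.62, 7.45 and 6.26 in heat shock and 4.93, 4.31 and 2.77 in sham. The groups overlapped, and nsEP replicate 3 was again the highest nsEP array. Its ratio over sham was 0.54 ± 0.94 after nsEP and 2.11 ± 0.94 after heat shock (SE, limma adjusted p = 0.959 and 0.256). AMOTL2 and LATS2, which feed back on YAP, AXL, a receptor tyrosine kinase, and THBS1, the matrix protein thrombospondin, had ratios between 0.09 and 0.49 for nsEP over sham and between 0.18 and 0.55 for heat shock over sham.

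Promoters of CCN2, ANKRD1 and MRTFB are shown because they hold the TEAD core, CATTCC or its reverse complement GGAATG, and because CCN2 and ANKRD1 are the standard readouts of YAP. They come from RefSeq (GRCh38.p14), 5′ to 3′ along the gene, chr6:131951447-131951556 on the minus strand for CCN2, chr10:90921195-90921322 on the minus strand for ANKRD1 and chr16:14186588-14186623 on the plus strand for MRTFB, with the core in capitals.
CCN2: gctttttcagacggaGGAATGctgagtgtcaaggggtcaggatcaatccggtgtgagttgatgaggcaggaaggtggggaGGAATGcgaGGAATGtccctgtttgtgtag
ANKRD1: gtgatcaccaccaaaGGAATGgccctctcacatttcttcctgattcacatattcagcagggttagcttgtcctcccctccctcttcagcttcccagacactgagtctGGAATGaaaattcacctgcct
MRTFB: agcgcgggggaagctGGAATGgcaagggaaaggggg

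The TEAD core occurred on either strand in 14.0% of all windows, in 13 of 55 windows of the members and in all 6 YAP target genes with a window (6 of 8 windows). CCN2 carried 3 copies and ANKRD1 2, and neither gene was called. The heat shock element, read as GAANNTTC or TTCNNGAA, occurred in 13.5% of all windows and in 5 members, ACTA2, ACTN1, ANKRD1, ARPC3 and VIM. Of these ACTA2, ARPC3 and ANKRD1 had heat shock arrays above the sham arrays at their main probe sets, where 17.5% of all genes did so. The same was seen in CFL1, WAS, CAPZA1, MSN and THBS1, whose windows held no such element. ACTA2 did not show it at its other probe sets, and the part of the element was not tested. None of the 5 was called after heat shock at its main probe set.

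Other probe sets of the members held calls that the brightest ones did not, and the 5 named here were chosen after their values were seen. Of the 90 probe sets 0 were called by limma in nsEP against sham, where 0.0586% of all probe sets were called. In heat shock against sham 3 were called higher and 1 lower, or 4.44% of the 90 against 4.17% of all probe sets (1.81% higher and 2.36% lower), and in nsEP against heat shock 5 were called lower, or 5.56%, against 4.96% of all probe sets in either direction and 2.65% lower.

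A second probe set of CCN1 had log2 signals of 3.39, 2.89 and 2.98 in nsEP, 7.19, 6.44 and 7.04 in heat shock and 5.11, 4.31 and 3.00 in sham. All 3 heat shock arrays lay above the others, with a ratio of 2.75 ± 0.66 over sham (SE, limma adjusted p = 0.0351). The nsEP ratio was -1.05 over sham (adjusted p = 0.825) and -3.80 over heat shock (adjusted p = 0.00529). All nsEP values and those of sham replicates 2 and 3 lay under 4.48, the upper bound of the dimmest quartile of probe sets. The sizes of these ratios are therefore uncertain. The call over sham was lost without any 1 heat shock array or without sham replicate 2 or 3 (adjusted p 0.0716 to 0.134), and with spike-in scaling (0.189), dim probe sets left out (0.0588), quantile normalization (0.0561) or the methods' t-test (0.171). In the main probe set nsEP replicate 3 stood above the other nsEP arrays, and here it did not.

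For TLN1 a dimmer probe set read 3.28, 2.83 and 5.20 in nsEP, 7.68, 8.40 and 8.46 in heat shock and 4.85, 4.10 and 4.77 in sham on the log2 scale. It rose after heat shock by 3.61 ± 0.63 over sham (SE, limma adjusted p = 0.00658, or 0.0554 with the methods' t-test), whereas the brightest TLN1 probe set had 0.17. A dimmer probe set of VIM, at 6.40, 6.32 and 5.15 in nsEP, 7.61, 7.85 and 7.75 in heat shock and 5.21, 6.42 and 5.51 in sham, rose after heat shock by 2.02 ± 0.45 (adjusted p = 0.024), a call lost without any 1 heat shock array or without sham replicate 1 or 3 (0.0768 to 0.0873), and with spike-in scaling (0.99, adjusted p = 0.361), the methods' t-test (0.123) or no variance trend (0.0711). In both genes the probe sets thus disagreed in size by more than their errors.

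Further calls between nsEP and heat shock were made for ACTN1 and THBS1. A second ACTN1 probe set had log2 signals of 8.29, 8.26 and 8.40 in nsEP, 9.30, 9.23 and 9.51 in heat shock and 8.61, 8.41 and 9.13 in sham, with a ratio of -1.03 ± 0.21 for nsEP over heat shock (SE, limma adjusted p = 0.0135, or 0.0682 without heat shock replicate 3 and 0.0543 without nsEP replicate 2). The call was also lost with spike-in scaling (-0.08, adjusted p = 0.933), on centred arrays (0.074), without the variance trend (0.0762) and with the methods' t-test (0.071). Its brightest probe set gave -0.64 in the same direction. A dim THBS1 probe set was called lower in nsEP than in heat shock (adjusted p = 0.00572), with 1.81, -0.74 and 1.49 in nsEP, 6.96, 6.26 and 6.10 in heat shock and 1.14, 4.08 and 4.5 in sham. Its nsEP values lay under 4.48, the upper bound of the dimmest quartile of probe sets, so no size is given, and the methods' t-test (0.121) and a fit without dim probe sets (0.0535) lost the call.

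**Figure D4:**
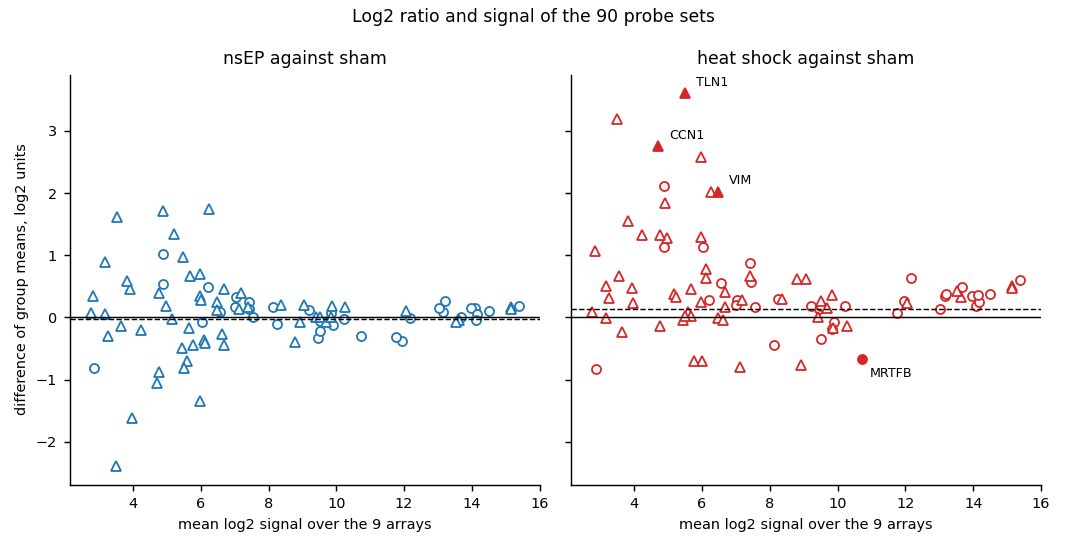
Difference of group means in log2 units against the mean log2 signal over the 9 arrays for the 90 probe sets of the members, in nsEP against sham (left) and heat shock against sham (right), with circles for the probe set that stands for its gene, triangles for the others, filled symbols for calls and a dashed line at the median of all genes. The calls above zero after heat shock, in TLN1, CCN1 and VIM, lie at low signals, and MRTFB at -0.66 is the only call below zero.

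Markers of other cell types were read beside these genes, since ACTA2, TAGLN, MYL9, CCN1, CCN2 and THBS1 also mark fibroblasts and smooth muscle. All 12 markers of the T cell line lay in the brightest quartile of probe sets, with 0 called after nsEP and 3 that fell after heat shock, with log2 ratios over sham of -1.79 for CD2, -1.01 for CD28 and -2.16 for TRAT1 (limma adjusted p = 7.39e-05, 0.0115 and 0.00204). Of 10 measured fibroblast and smooth muscle markers 0 did, and their summed signal was 441.9 to 749.2 in nsEP, 2401.8 to 4933.8 in heat shock and 648.5 to 865.5 in sham. The collagen gene COL1A1 was the only 1 of them called, with mean log2 signals of 6.98 ± 0.33 in nsEP, 11.29 ± 0.75 in heat shock and 7.39 ± 0.50 in sham (SD, n = 3 each, heat shock over sham 3.89, limma adjusted p = 6.81e-05). The sum of the other 9 was 340.3 to 588.4 in nsEP, 642.5 to 932.3 in heat shock and 457.6 to 740.3 in sham. The summed myeloid markers were 314.6 to 358.0 in nsEP, 566.6 to 691.9 in heat shock and 303.6 to 347.4 in sham, and CD14 was the only 1 of 5 called after heat shock (4.78, adjusted p = 0.00193). The summed epithelial and endothelial markers were 1842.9 to 2878.4 in nsEP, 1387.0 to 2108.3 in heat shock and 2215.7 to 3815.8 in sham. Those of B cells were 605.1 to 845.0, 614.8 to 1006.6 and 510.0 to 768.7 in the same groups. In each of these lists 1 marker lay in the brightest quartile and 0 were called in any comparison. The part of these signals in the member values was not tested.

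Genes that surround the members in the same pathways were called mainly outside the cytoskeleton. Of 35 other actin regulators measured 0 were called in any of the 3 comparisons (smallest limma adjusted p after nsEP 0.702, with 1 at an unadjusted p under 0.05). The share of all genes called was 0.0607% in nsEP against sham, 5.71% in heat shock against sham and 5.99% in nsEP against heat shock.

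In the Hippo pathway 0 of 18 genes were called after nsEP (0.0607% of all genes) and 1 was called after heat shock (5.71% of all genes). MOB1B, a cofactor of the LATS kinases, fell by 1.18 on the log2 scale after heat shock (SE 0.18, limma adjusted p = 0.00268) and was 1.00 higher in nsEP than in heat shock. YAP1 and WWTR1, which encode YAP and TAZ, were dimmer than the median probe set. YAP1 averaged 5.92 ± 0.67 in nsEP, 6.17 ± 0.18 in heat shock and 5.69 ± 0.78 in sham, and WWTR1 4.47 ± 0.85, 5.77 ± 0.73 and 5.27 ± 0.21 in the same groups (log2, SD, n = 3 each). Neither was called.

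Of 15 other targets of YAP and TAZ, 10 lay below the median signal, and GADD45A, a stress gene also driven by other pathways, was the only one called after heat shock at 1.51 ± 0.22 (SE, limma adjusted p = 0.00195). Among 14 other targets of SRF with MRTF, TUFT1 was the only one called after heat shock at 1.86 ± 0.23 (adjusted p = 0.000625). Of all genes 5.71% were called after heat shock, 1.72% higher and 3.99% lower. Scaling to the spike-in controls took the calls of GADD45A and TUFT1 away, at 0.49 for GADD45A and 0.83 for TUFT1. TPM2, a tropomyosin gene of that second list, was 1.89 lower on the log2 scale in nsEP than in heat shock (adjusted p = 0.0441, but 0.0525 to 0.142 without any 1 heat shock or sham array or nsEP replicate 2). None of these genes was called after nsEP.

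Among the lists given here, genes were called after nsEP only in that of immediate early targets, which SRF drives with ternary complex factors. That list, like the others, was drawn up when earlier results of these data were known, so its calls are no test of the pathway. Which partner of SRF acts on these genes was not tested. Of 11 genes measured on that list, 3 were called higher and 0 lower after nsEP, and 7 higher and 1 lower after heat shock. Of all genes 0.0506% were called higher and 0.0101% lower after nsEP, and 1.72% and 3.99% after heat shock. The list also held the ternary complex factor genes ELK1, ELK3 and ELK4, and the 1 called lower was ELK4. EGR1, the zinc finger factor whose promoter is printed above, had log2 signals of 12.67, 13.63 and 13.31 in nsEP, 14.73, 14.86 and 14.49 in heat shock and 7.79, 8.83 and 8.16 in sham. The 3 groups were separate, with ratios of 4.94 for nsEP and 6.43 for heat shock over sham.

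FOS, a subunit of the AP-1 factor, had ratios over sham of 7.27 after nsEP and 9.20 after heat shock, and its relative FOSB of 3.58 and 6.57, all 4 values called by limma. Both were lower in nsEP than in heat shock, with ratios of -1.93 for FOS (adjusted p = 0.015, but 0.0542 to 0.0665 without heat shock replicate 1 or 2 or nsEP replicate 1) and -2.99 for FOSB. EGR3, a relative of EGR1, was called higher after heat shock at 4.16 and had 2.26 after nsEP (adjusted p = 0.0828, but 0.000931 without nsEP replicate 3). ELK4, which encodes a ternary complex factor, fell by 1.36 after heat shock (adjusted p = 0.00129) and had a ratio of -0.18 after nsEP.

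**Figure D5:**
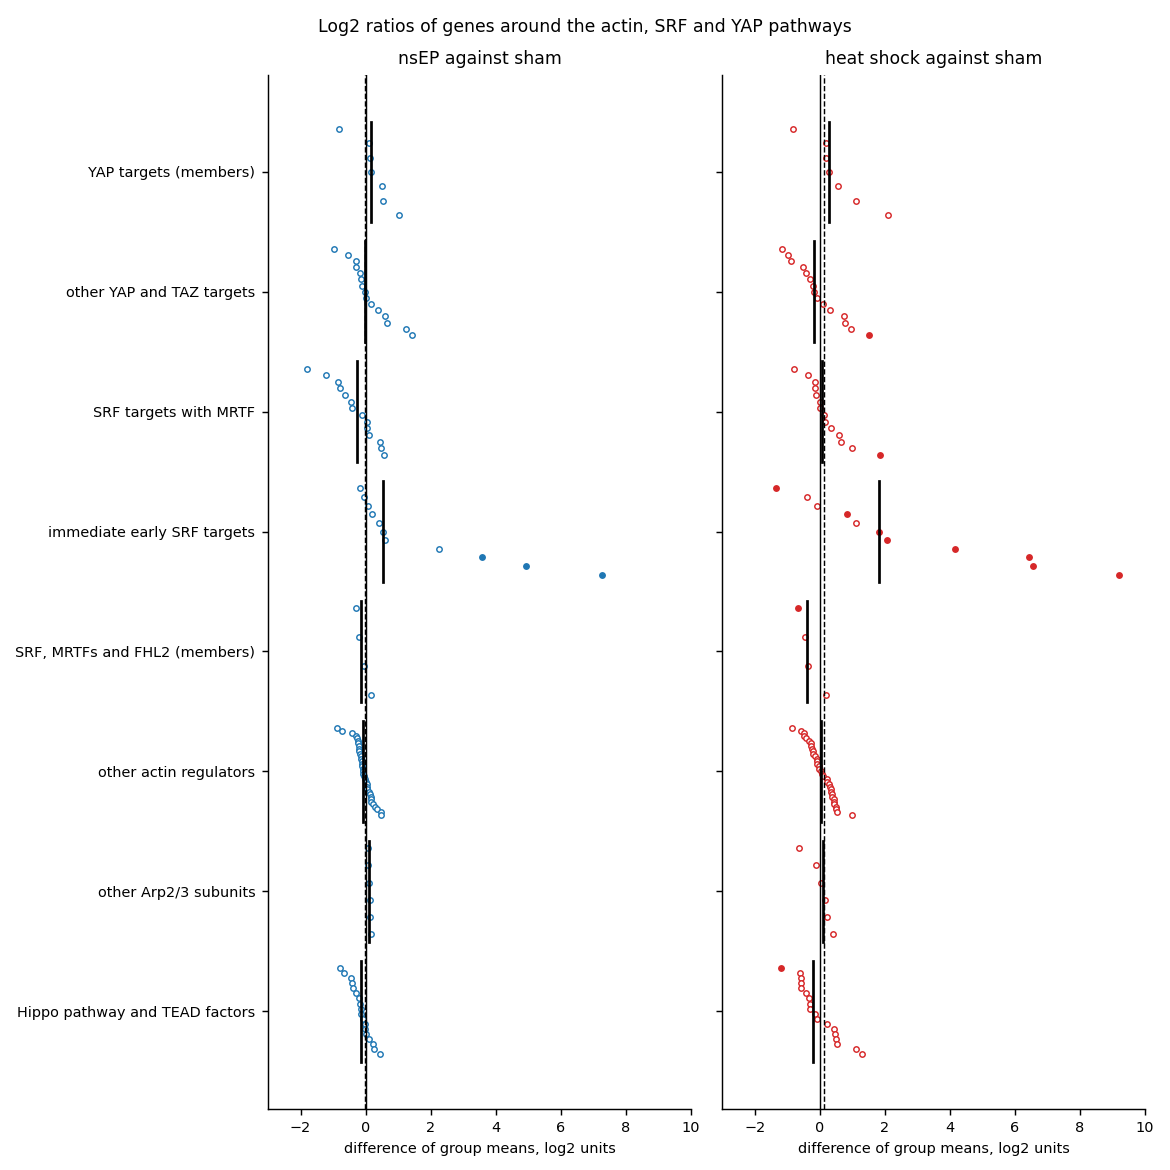
Difference of group means in log2 units for each gene of the surrounding lists and of the YAP and SRF members, in nsEP against sham (left) and heat shock against sham (right), with 1 point per gene, filled where limma called it, a vertical bar at the list's median and a dashed line at the median of all genes. After nsEP the filled points are 3 immediate early genes, and after heat shock the filled points include EGR1 at 6.43 and TUFT1 at 1.86.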

How the data were processed

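RNA of 9 Jurkat samples was read on an Affymetrix array of 54675 probe sets. The deposited values are log2 MAS5 signals made by the authors, with each array scaled to a common trimmed mean, not quantile normalized and with dim probe sets kept. Of 54613 non-control probe sets, 41091 had 1 gene symbol in the platform table, 1801 several and 11721 none, and only the first named a gene. All 9 arrays entered 1 fit in limma 3.58.1 (R 4.3.3) with 1 mean per group, a variance trend and p-values adjusted over all 54613 by Benjamini-Hochberg, and a value was called at an adjusted p under 0.05. With so few arrays the smallest p of an exact test for a single gene is 0.1, and their number limits precision. The fit was tested on simulated data. Members and lists were chosen with earlier results of these data known. Every member was accounted for. Array values were given for called members and for CCN1, CCN2, ANKRD1, ACTB, ACTG1, SRF, VCL and VIM, and up to 3 called genes in each direction were named from each other list. Values of other members (ACTA2, CFL1, ARPC3, WAS, ACTN1 and MRTFA) and genes such as YAP1 and WWTR1 were added after their values were seen. Promoters came from RefSeq (GRCh38.p14). The results of 1 other list are not reported here.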

Additional observations from a re-analysis of the deposited data

How the results depend on the processing

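Of 1668 values recomputed for single genes and probe sets, 1468 kept their direction and side of the threshold, 130 lost a call, 16 gained one, 50 uncalled values changed sign or moved and 4 called values changed sign. The 4 were MRTFB in heat shock over sham with gene means (0.63) and, with scaling to the spike-in controls, GADD45A in nsEP over heat shock (0.0304) and MCL1, an immediate early gene, in heat shock over sham (-0.20) and nsEP over heat shock (0.21). After nsEP 0 members were called under every alternative, and their median ratio was -0.0019 with spike-in scaling and -0.0711 to 0.0893 without 1 array. After heat shock the count of called members was 1, and became 2 with array weights (8.16% of all genes called), 3 with dim probe sets left out (11.0%), 4 with gene means (4.39%), 2 with only the 6 arrays compared (7.0%), 0 with the methods' t-test at its own thresholds (1.62%) or after Benjamini-Hochberg (0.941%), 0 without the variance trend (1.78%), 0 after quantile normalization (5.33%) and 0 to 4 without 1 array (2.99% to 7.71%). The members' median after heat shock was -0.0380 on centred arrays, -0.7609 with spike-in scaling, 0.3632 with gene means, 0.1115 after quantile normalization and 0.1750 to 0.3352 without 1 array. For nsEP over heat shock the count was 1 with array weights (7.46% of all genes called), 2 on centred arrays (MRTFA and MRTFB; 11.9%), 1 with dim probe sets left out (11.5%), 3 with gene means (4.71%) and 0 to 4 without 1 array (3.19% to 9.05%), and the median was 0.1204 on centred arrays, 0.7481 with spike-in scaling and -0.3251 to -0.1733 without 1 array. Correlations of same-numbered deviations were -0.16 to 0.22, and with 3 arrays a group they cannot show whether the replicate numbers paired the samples. With the number as a block 0, 1 and 0 members were called by limma in the 3 comparisons, with MRTFB at -0.66 (adjusted p = 0.028) and the call of TPM2 lost (adjusted p = 0.0545). The calls of FOS, EGR1 and FOSB after nsEP were lost with the methods' t-test after Benjamini-Hochberg (adjusted p = 0.406, 0.406 and 0.48), and that of FOSB also without the variance trend (0.0565) and with only 6 arrays (0.0772). The cause of these changes was not tested. Dim probe sets limit the YAP targets, whose spread between arrays is wide, and 3 arrays a group limit all values.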
